A study of Homo sapiens with 16 samples.

Results

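The genes described here carry newly made proteins into and out of the endoplasmic reticulum (ER): 44 genes of signal sequence targeting, translocation, signal peptide removal, N-glycosylation and COPII export. They were taken by name from a list of pathway genes, chosen with earlier results of these data known. All 44 were found among the 35075 genes with transcripts in the files. All 44 also passed the filter on low counts that left 16787 genes for testing. RNA was sequenced from HEK293, a line derived from human embryonic kidney, in 4 groups of 4 libraries: GFP as the control, RNF43 in its wild-type form (WT), and the frameshift forms R117fs and G659fs, each overexpressed. RNF43 is a membrane-spanning ubiquitin ligase made at the ER, and it takes Frizzled receptors off the cell surface. In R117fs the reading frame is lost before the catalytic RING domain, and in G659fs in the cytoplasmic tail behind it. All 4 groups, the GFP controls included, were overexpressing cells, and no untreated cells were among the samples. The vector, its promoter, whether cells were pools or 1 clone, and the time of harvest are not given in the sources used here. Nothing said whether the replicates were separate cultures, so the p-values cover only how these samples spread, and that spread may be technical.

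Proteins bound for the secretory pathway start with a signal sequence that the signal recognition particle (SRP) reads on the ribosome and hands to a receptor on the ER. The chain is then threaded through the SEC61 channel, helped by the TRAP complex, while signal peptidase removes the signal and oligosaccharyltransferase attaches N-glycans. Finished proteins leave in vesicles coated with COPII, and receptors for the KDEL motif bring escaped ER residents back. Several of these genes are known targets of XBP1, a transcription factor of the unfolded protein response, and demand on the pathway is high in professional secretory cells.

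The labels were checked on the overexpressed gene first. RNF43 (ENSG00000108375, chromosome 17, 58352500 to 58417595, minus strand, GRCh38) was at 13.2, 34.3, 27.8 and 50.3 CPM, that is counts scaled by library size and TMM factor, in GFP replicates 1 to 4. It lay at 35240 to 94570 CPM in every RNF43 library other than R117fs replicate 1, which held 30190 CPM. The libraries held 20364357 to 46779570 estimated counts. Markers linked to HEK293 were above 1 CPM in every library for 8 of 8 genes, with a summed level that ran from 1034 to 1181 CPM in GFP, and in WT from 1374 to 1481, in R117fs from 1180 to 1366, in G659fs from 1278 to 1382. Their part in the results below was not tested. Markers of gut, fibroblast and secretory cells passed 1 CPM in every library for 2 of 5, 1 of 6 and 0 of 6 genes. These were CDX2, LGR5 and COL1A1, and the insulin gene INS was at 0 throughout. The summed gut markers were at 25.3 to 27.1 CPM in GFP, below the 28.1 to 36.6 of all RNF43 libraries, and their part in the results was not tested. The summed fibroblast markers were at 43.2 to 56.98 CPM in GFP, and RNF43 libraries lay on either side, at 35.0 to 70.0. The summed secretory markers were at 1.60 to 2.32 CPM in GFP and at 0.889 to 2.41 CPM across the RNF43 groups. In these bulk libraries, more RNA per cell and more cells with a response cannot be told apart.

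R117fs replicate 4 stood apart, and the 44 genes showed it. The SD of its log2 deviations from its own group, over all genes, was 0.579, against 0.272 to 0.409 in the other 15 libraries. Across all genes these deviations followed GC content, the share of G and C bases in a transcript (Spearman 0.799; the points are genes of 1 library and not independent). Among the 44 genes, split at their median GC content of 44.5%, 20 of the 22 with lower GC had their lowest R117fs value in replicate 4, with a median deviation of -0.63 on the log2 scale. Of the 22 with higher GC, 5 had their lowest and 9 their highest value there. In R117fs against GFP, leaving it out took the calls among the 22 lower-GC genes from 5 to 14, and left those among the others at 17. The share of all genes called also rose, from 15.6% to 21.7%, and was not split by GC content. Counts of the members below are therefore given with all 16 libraries and again without this one, and R117fs values of called members both ways.

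**Figure D1:**
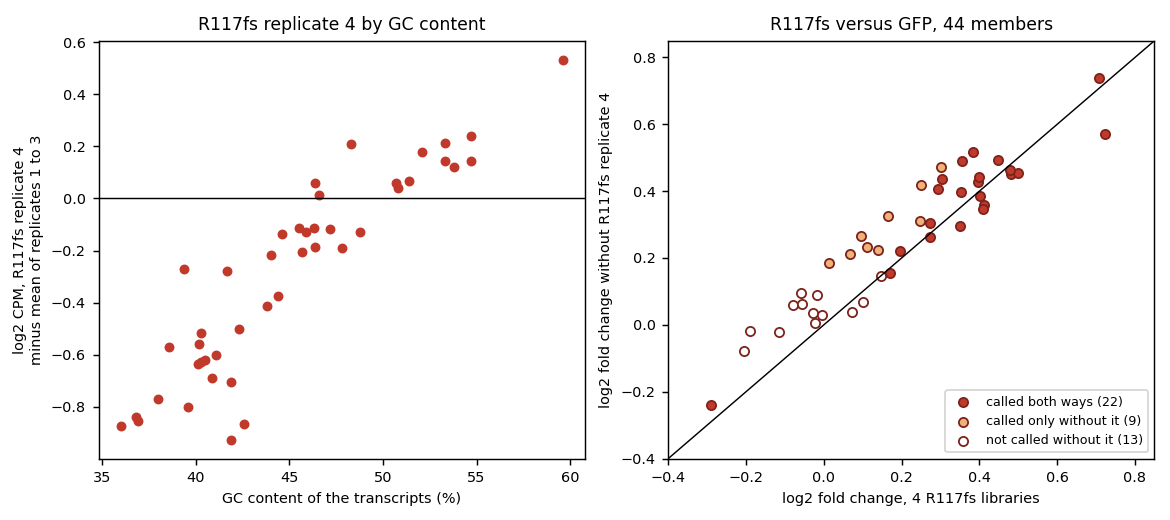
Left, log2 CPM of R117fs replicate 4 minus the mean of replicates 1 to 3 against the GC content of each gene's transcripts, 1 point for each of the 44 genes. Right, log2 fold change of R117fs against GFP with 4 R117fs libraries (x) and without replicate 4 (y); 22 genes passed the test both ways, 9 only without it, and 13 did not pass without it.

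With wild-type RNF43, 22 of the 44 genes rose and 1, SEC24B, fell (52.3% called, that is with an edgeR adjusted p under 0.05, against 21.5% of all genes tested, 9.85% higher and 11.6% lower). With R117fs 21 rose and SEC24B fell (50% against 15.6% of all genes, 7.04% higher and 8.57% lower). With G659fs 10 rose and SEC24B fell (25%, a share no higher than the 25.4% of all genes, 11.6% higher and 13.8% lower). The median log2 fold change over the 44 genes was 0.21, 0.22 and 0.15 in these comparisons, where that of all genes was 0.00, -0.01 and 0.00. The changes were small: the highest was 0.72 on the log2 scale (SSR4, R117fs against GFP; without R117fs replicate 4 SSR4 was at 0.57 and SEC24D was highest at 0.74) and the lowest -0.52 (SEC24B, G659fs against GFP). Because the 3 comparisons use the same 4 GFP libraries, their values are set side by side and no overlap between them is read as a result. The 44 genes were chosen with earlier results of these data known, so a share above that of all genes is a description only.

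Without R117fs replicate 4 the same comparisons gave 33 higher and 1 lower for WT (77.3% against 36% of all genes, 18.2% higher and 17.7% lower), 30 and 1 for R117fs (70.5% against 21.7%, 9.85% higher and 11.9% lower) and 26 and 3 for G659fs (65.9% against 39.4%, 19.7% higher and 19.8% lower). The G659fs count thus moved from 11 to 29 genes with the library of another group, and its median log2 fold change stayed at 0.15. A fit of the 8 G659fs and GFP libraries alone also gave 29 genes (43.1% of all genes), and one of the 8 WT and GFP libraries gave 34 (36.3%). The R117fs count was 14 without GFP replicate 4 (8.56% of all genes), and 11 in a fit of the 8 R117fs and GFP libraries alone (3.67%).

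Each gene was then followed across the 3 constructs. In all 3, 9 genes rose: SRPRB, SEC61A1, SSR1, SSR4, RPN1, RPN2, DAD1, SEC24D and KDELR3, which cover docking, channel, TRAP, glycosylation, coat and retrieval. Another 11 rose in WT and R117fs (SRP68, SRP72, SEC61B, SSR2, SSR3, SEC11C, DDOST, STT3A, OSTC, SEC23B and SEC13), with no call in G659fs. SRP19 and SPCS1 rose in WT, SEC31A in R117fs and KDELR2 in G659fs, each with no call in the other 2 constructs. The share of all genes with each pattern was not counted, and the 3 comparisons use the same GFP libraries. These patterns do not show that constructs differ, which is tested further on. The remaining 19 genes had no call in any of the 3 comparisons.

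**Figure D2:**
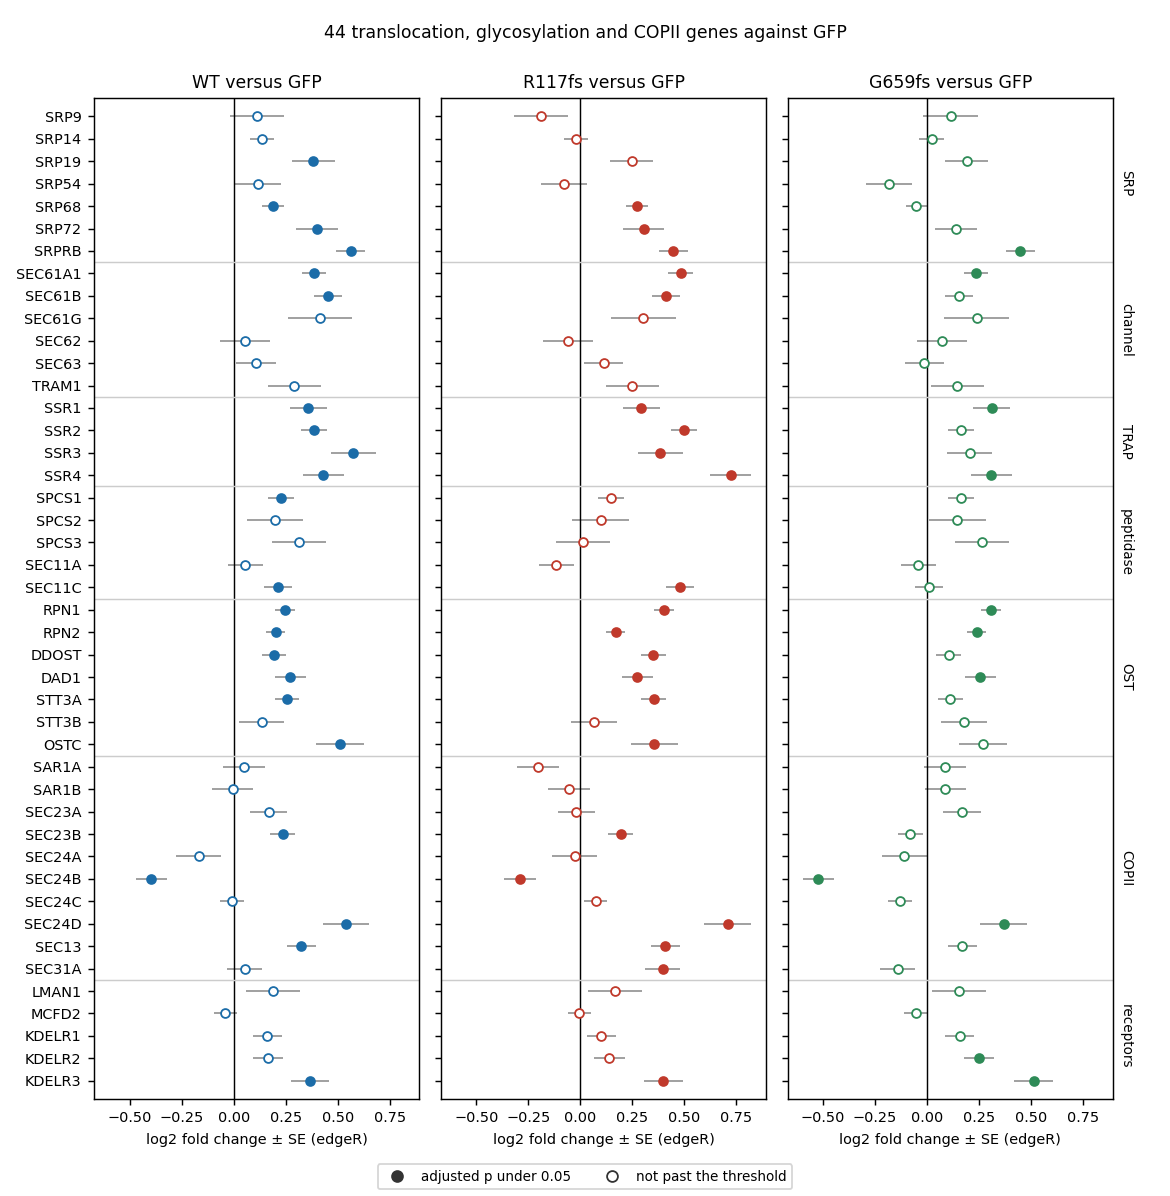
Log2 fold change ± SE (edgeR) of the 44 genes in WT, R117fs and G659fs against GFP, ordered by role. Filled points have an adjusted p under 0.05 and open points do not; most points lie right of 0, and SEC24B is the one filled point left of it in each panel.

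**Figure D3:**
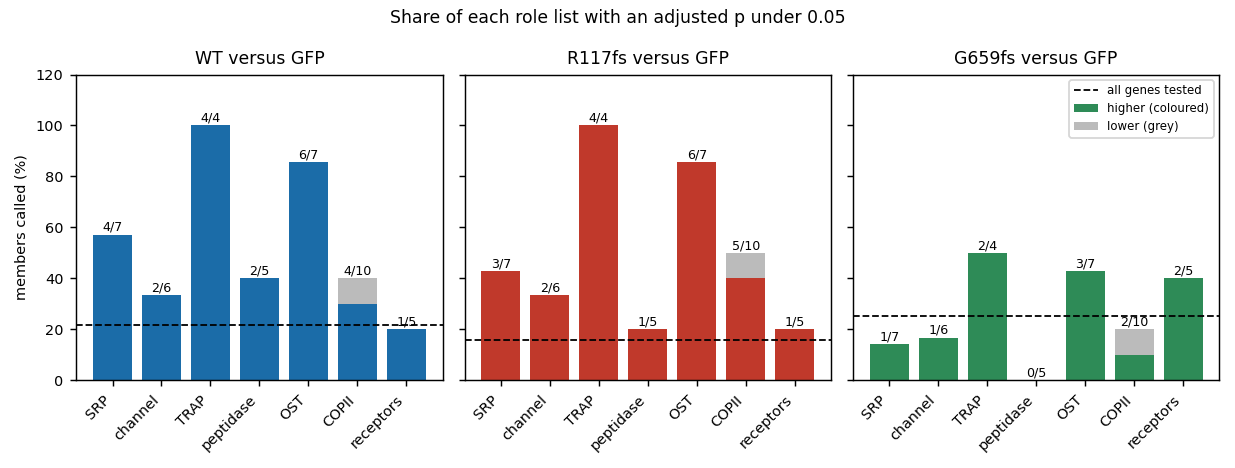
Share of each role list called in each comparison with GFP (bars, with the count above), higher in colour and lower in grey. The dashed line is the share of all genes called: 21.5% in WT, 15.6% in R117fs and 25.4% in G659fs, and the TRAP and oligosaccharyltransferase bars stand above it in every panel.

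Since many members rose together, their promoters were searched for sites known from ER stress genes. RefSeq promoter windows (GRCh38.p14, 250 bases before to 50 after the transcription start) were at hand for 38 of the 44 genes. The core of the unfolded protein response element, TGACGTGG or its reverse complement CCACGTCA, was found in 7 of the 38 genes (18.4%), against 141 of the 11820 tested genes with a window (1.19%). Some genes had several windows, 1 for each start site listed, and a gene counted with a match in any: 7 of the 51 member windows matched (13.7%), against 144 of 17321 (0.831%). The core was not particular to the members: of 88 windows of the neighbouring pathway genes described further on, 8 matched. It shares TGACGT with the cyclic AMP element TGACGTCA, which was in 0 of the 38 and 3.57% of the tested genes. The ER stress element ERSE (CCAAT, 9 bases, CCACG) and ERSE-II (ATTGG, 1 base, CCACG), whose CCACG the reverse core contains, were in 0 members each, and in 0.161% and 0.127% of the tested genes. Both strands were searched, and an absent match says only that these letters were not in the window. Stretches around the 7 matches are shown on the strand of the gene with the core in capitals.
KDELR3, chr22:38468024-38468083, plus strand: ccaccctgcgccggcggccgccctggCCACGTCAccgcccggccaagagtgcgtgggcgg
SSR4, chrX:153794513-153794572, plus strand: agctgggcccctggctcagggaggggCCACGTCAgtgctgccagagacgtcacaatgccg
SSR3, chr3:156554133-156554192, minus strand: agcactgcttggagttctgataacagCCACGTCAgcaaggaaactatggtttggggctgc
SRP19, chr5:112861149-112861208, plus strand: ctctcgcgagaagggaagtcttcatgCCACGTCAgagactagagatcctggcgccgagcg
SEC23A, chr14:39103232-39103265, minus strand: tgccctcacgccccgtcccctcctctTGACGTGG
SEC24A, chr5:134648580-134648639, plus strand: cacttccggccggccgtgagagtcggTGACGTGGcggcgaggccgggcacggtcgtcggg
SEC62, chr3:169966764-169966806, plus strand: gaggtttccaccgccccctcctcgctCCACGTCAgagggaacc
Counted from the start site of the matching window, the core began 46 bases upstream in KDELR3, 129 in SSR4, 41 in SSR3, 112 in SRP19, 4 in SEC23A, 179 in SEC24A and 17 in SEC62. In SSR3 the match was in 1 of 3 windows, whose start site lay 1059 bases inside the annotated gene, and the windows nearer to the 5′ end had none. In SSR4 it was in 1 of 2, 1152 bases inside, and in SEC23A in the sole window, 6411 bases inside. KDELR3 and SSR4 rose with all 3 constructs, SSR3 with WT and R117fs, and SRP19 with WT. SEC23A, SEC24A and SEC62 carried the same letters and had no call in any of the 3. Without R117fs replicate 4 SEC23A passed in WT and G659fs and SRP19 also in R117fs (edgeR adjusted p = 0.00827, 0.00807 and 0.0323), SSR3 passed in all 3, and SEC24A and SEC62 in none. A match is a description of the sequence. Binding was not measured.

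XBP1, a factor known to bind such sites, was at 284 ± 17.7 CPM in GFP, 419 ± 26.4 in WT, 384 ± 19.6 in R117fs and 328 ± 20.3 in G659fs (SD, n = 4). It rose in each by 0.56 ± 0.07, 0.44 ± 0.07 and 0.21 ± 0.07 on the log2 scale (edgeR adjusted p = 2.22e-05, 0.000328 and 0.0255). In G659fs its log2 fold change was -0.35 ± 0.07 against WT and -0.23 ± 0.07 against R117fs (edgeR adjusted p = 0.00823 and 0.0283). With replicate 4 left out, the R117fs value was 0.45 against GFP (edgeR adjusted p = 5.54e-05). These are RNA levels of the whole gene, and the activity of the factor was not measured. Its part in the changes of the 44 genes was not tested.

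Levels in GFP cells set the scale. In the deposited TPM, which takes transcript length into account, the most abundant member was SRP9 (535 ± 27.8, SD, n = 4), followed by SSR4 (393 ± 23.2), SPCS2 (346 ± 23.0) and SSR2 (311 ± 18.2). The least abundant were the coat adaptors SEC24A (19.0 ± 2.17) and SEC24D (19.9 ± 3.58) and the retrieval receptor KDELR3 (20.1 ± 1.35). Paralogs were spread widely: KDELR1 was at 262 ± 9.98 and KDELR2 at 128 ± 4.01 TPM, and SEC24C at 48.2 ± 1.24 and SEC24B at 25.1 ± 3.16. The signal peptidase subunit SEC11A was at 307 ± 19.1 and its paralog SEC11C at 64.6 ± 2.87 TPM. KDELR3 and SEC11C, the least abundant of their families here, were among the genes that rose.

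In the SRP and its receptor, 4 of 7 genes rose with WT, 3 with R117fs and 1 with G659fs, and 0 fell. That was 57.1%, 42.9% and 14.3% of the list, beside 21.5%, 15.6% and 25.4% of all genes called. Without R117fs replicate 4 5, 4 and 2 rose, and 1 fell with G659fs, beside 36%, 21.7% and 39.4% of all genes. SRPRB, the membrane subunit that anchors the SRP receptor (ENSG00000144867, chromosome 3, 133784033 to 133825772, plus strand), was at 77.0, 71.4, 78.3 and 65.6 CPM in GFP replicates 1 to 4. It was at 115, 103, 108 and 106 CPM in WT, 101, 108, 98.8 and 90.0 in R117fs and 105, 95.1, 96.9 and 102 in G659fs. Every RNF43 library lay above every GFP library, and WT replicate 1 was the highest of all. The log2 fold change was 0.56 ± 0.07 in WT, 0.45 ± 0.07 in R117fs and 0.45 ± 0.07 in G659fs (edgeR adjusted p = 3.67e-05, 0.000465 and 0.000215; R117fs 0.49 without replicate 4). SRP68 and SRP72, which bind each other on the SRP RNA, rose with WT by 0.19 ± 0.05 and 0.40 ± 0.10 and with R117fs by 0.27 ± 0.05 and 0.30 ± 0.10. In G659fs their log2 fold changes were -0.05 ± 0.05 and 0.14 ± 0.10 (edgeR adjusted p = 0.512 and 0.335).

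Some of the SRP calls rested on single libraries. For SRP72 in R117fs the edgeR adjusted p was 0.047, with R117fs replicate 4 at 173.7 CPM, under all 4 GFP libraries (193.2 to 205.5), and replicates 1 to 3 at 258.8 to 274.0. It was 2.17e-06 without that library (log2 fold change 0.44), and 0.0519 to 0.115 without any 1 of the other 15. SRP68 in WT went to an edgeR adjusted p of 0.0566 without GFP replicate 3 and 0.0576 without WT replicate 4. SRP19, which helps assemble the particle on its RNA, rose with WT by 0.38 ± 0.10 (edgeR adjusted p = 0.0127, 0.0552 without GFP replicate 4). SRP54, the GTPase that reads the signal sequence, had no call with any construct (0.12, -0.08 and -0.18), and fell with G659fs without R117fs replicate 4 (edgeR adjusted p = 0.00549). SRP9 and SRP14, the pair that slows elongation, ran from -0.19 to 0.14 in the 3 comparisons with no call.

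In the channel, 2 of 6 genes rose with WT and R117fs and 1 with G659fs. These were 33.3%, 33.3% and 16.7% of the list, beside 21.5%, 15.6% and 25.4% of all genes called. With R117fs replicate 4 left out, 5, 5 and 4 rose, beside 36%, 21.7% and 39.4% of all genes. SEC61A1, the pore itself (ENSG00000058262, chromosome 3, 128051641 to 128071683, plus strand), was at 362, 327, 326 and 311 CPM in GFP and at 444, 414, 440.0 and 437 in WT. It was at 433, 464, 463 and 493 CPM in R117fs and 408, 379.6, 373 and 399 in G659fs. GFP replicate 1 was the highest control and still under every RNF43 library. The log2 fold changes were 0.39 ± 0.06, 0.48 ± 0.06 and 0.23 ± 0.06 (edgeR adjusted p = 0.000217, 4.38e-05 and 0.00755), and 0.45 in R117fs without replicate 4. SEC61B, the small beta subunit of the channel, was at 63.9, 57.01, 60.2 and 55.8 CPM in GFP, 84.0, 79.6, 83.6 and 77.4 in WT, 71.6, 76.8, 79.7 and 87.8 in R117fs and 67.7, 66.3, 63.5 and 66.1 in G659fs. WT and R117fs lay above GFP throughout, while G659fs replicate 3 was under GFP replicate 1. SEC61B rose by 0.45 ± 0.07 in WT and 0.41 ± 0.07 in R117fs (edgeR adjusted p = 0.000157 and 0.000598; R117fs 0.36 without replicate 4). In G659fs its fold change was 0.15 ± 0.07 (edgeR adjusted p = 0.102, 0.0195 without R117fs replicate 4).

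The other 4 channel genes, with a GC content of 36.8% to 41.9%, had no call with all libraries. SEC61G, the gamma subunit, had log2 fold changes of 0.41 ± 0.15, 0.30 ± 0.16 and 0.24 ± 0.16 with no call, and passed in all 3 without that library (edgeR adjusted p = 0.00183, 0.00235 and 0.047). TRAM1, a membrane protein beside the channel that contacts entering chains, had 0.29 ± 0.13, 0.25 ± 0.13 and 0.14 ± 0.13 and likewise passed without it (edgeR adjusted p = 0.000108, 1.66e-05 and 0.0201). In R117fs, TRAM1 replicate 4 held 125.2 CPM and the other replicates 206.0 to 233.6, where GFP held 159.9 to 177.0. SEC62 and SEC63 serve chains that enter after translation. Without the library SEC63 was at 0.11, 0.23 and -0.01 (edgeR adjusted p = 0.0469, 0.001 and 0.825) and SEC62 at 0.06, 0.10 and 0.07 (0.408, 0.224 and 0.259), and the genes were not tested against each other.

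All 4 genes of the TRAP complex, which sits beside the channel and helps some signal sequences to open it, rose with WT and with R117fs, and 2 of 4 with G659fs. All 4 rose with every construct once R117fs replicate 4 was left out. The shares of all genes called were 21.5%, 15.6% and 25.4%, and 36%, 21.7% and 39.4% without that library. Summed over the complex, GFP libraries lay at 746 to 811 CPM and G659fs libraries at 916 to 980.3. WT lay at 1047 to 1102 and R117fs at 1019 to 1133, so none overlapped with GFP. SSR4 (ENSG00000180879, chromosome X, 153793516 to 153798505, plus strand) was at 146, 144, 127 and 133 CPM in GFP, 182, 181, 191 and 188 in WT, 190.4, 211, 212 and 295 in R117fs and 172, 165, 168 and 176 in G659fs. R117fs replicate 4 was far above its group in this gene, the most GC-rich of the 44 (59.6%). SSR4 rose by 0.43 ± 0.10, 0.72 ± 0.10 and 0.31 ± 0.10 (edgeR adjusted p = 0.00482, 0.000138 and 0.0286), and by 0.57 in R117fs without replicate 4. In G659fs the edgeR adjusted p was 0.0802 without GFP replicate 3, 0.0721 without GFP replicate 4, 0.0547 without G659fs replicate 1, 0.0535 without G659fs replicate 3 and 0.0702 without G659fs replicate 4.

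SSR3 moved the other way in that library. It was at 208, 208, 214 and 184 CPM in GFP, 326, 291, 299 and 296 in WT, 276, 302, 295 and 188 in R117fs and 249, 226, 227 and 235 in G659fs. R117fs replicate 4 lay among the GFP libraries, and the other 3 above them. The log2 fold changes were 0.58 ± 0.11, 0.38 ± 0.11 and 0.20 ± 0.11 (edgeR adjusted p = 0.00105, 0.0209 and 0.174), and without R117fs replicate 4 they were 0.58, 0.52 and 0.20 (6.01e-07, 5.37e-06 and 0.00442). The R117fs call ended with an edgeR adjusted p of 0.0822 without GFP replicate 4, 0.057 without R117fs replicate 2 and 0.0536 without R117fs replicate 3.

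SSR1, the alpha subunit with a calcium-binding luminal part, held 260.2, 265, 270.3 and 254 CPM in GFP and 333, 339, 336 and 339 in WT. It held 322, 361, 361 and 243 CPM in R117fs and 342, 318, 324 and 318 in G659fs. The 4 WT libraries lay close together, and R117fs replicate 4 alone was under the GFP libraries. Fold changes were 0.36 ± 0.09, 0.29 ± 0.09 and 0.31 ± 0.09 (edgeR adjusted p = 0.00804, 0.0328 and 0.0163; R117fs 0.41 without replicate 4). The R117fs call ended at 0.0676 without GFP replicate 1, 0.073 without GFP replicate 2, 0.0611 without GFP replicate 3, 0.0992 without GFP replicate 4, 0.0871 without R117fs replicate 2 and 0.0891 without R117fs replicate 3, and the G659fs call at 0.0547 without GFP replicate 4. SSR2, the beta subunit, held 197, 192, 193 and 176 CPM in GFP, 261, 236, 250.4 and 244 in WT, 254, 258, 266 and 293 in R117fs and 218, 207, 203 and 221 in G659fs. All RNF43 libraries were above GFP, G659fs by the least. SSR2 rose by 0.39 ± 0.06 in WT and 0.50 ± 0.06 in R117fs (0.45 without replicate 4), with edgeR adjusted p = 0.00029 and 4.38e-05, and its G659fs value was 0.16 ± 0.06 (edgeR adjusted p = 0.058, 0.00784 without R117fs replicate 4).

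In signal peptidase 2 of 5 genes rose with WT, 1 with R117fs and 0 with G659fs (4, 3 and 2 without R117fs replicate 4). With all libraries that was 40%, 20% and 0%, beside 21.5%, 15.6% and 25.4% of all genes called. Leaving out the library made the shares of all genes 36%, 21.7% and 39.4%. SEC11C, one of its paralogous catalytic subunits (ENSG00000166562, chromosome 18, 59139477 to 59158836, plus strand), was at 27.02, 26.1, 27.4 and 25.2 CPM in GFP, 33.5, 29.4, 30.2 and 29.8 in WT, 33.3, 37.4, 39.2 and 38.1 in R117fs and 27.9, 25.8, 26.5 and 26.6 in G659fs. R117fs was high in all replicates, with replicate 1 just under WT replicate 1, and G659fs overlapped with GFP. SEC11C rose by 0.48 ± 0.07 in R117fs (0.46 without replicate 4) and 0.21 ± 0.07 in WT, and was at 0.01 ± 0.07 in G659fs (edgeR adjusted p = 0.00017, 0.0296 and 0.922). The WT call ended at 0.0531 without GFP replicate 1, 0.0815 without GFP replicate 2, 0.11 without GFP replicate 4, 0.11 without WT replicate 1, 0.0563 without WT replicate 3 and 0.0506 without WT replicate 4. The other catalytic subunit, SEC11A, had 0.06, -0.12 and -0.04 with no call, with or without R117fs replicate 4.

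SPCS1, an accessory subunit, held 90.1, 81.1, 93.1 and 77.2 CPM in GFP, 99.8, 100.2, 101 and 99.2 in WT, 95.7, 94.1, 93.2 and 95.2 in R117fs and 103, 92.2, 94.7 and 93.2 in G659fs. The GFP libraries were spread more widely than the WT and R117fs libraries, and all WT libraries were above them. It rose with WT by 0.23 ± 0.06 (edgeR adjusted p = 0.0147, 0.0608 without GFP replicate 2 and 0.0733 without GFP replicate 4). In R117fs and G659fs it was at 0.15 ± 0.06 and 0.16 ± 0.06 (edgeR adjusted p = 0.117 and 0.0611; without R117fs replicate 4 0.0752 and 0.0181). SPCS3, needed for cleavage, had the lowest GC content of the 44 genes (36.0%) and fold changes of 0.31, 0.01 and 0.26. Without R117fs replicate 4 these were 0.31, 0.18 and 0.26 and all passed (edgeR adjusted p = 5.29e-05, 0.0132 and 0.000228). SPCS2 then passed in WT and R117fs (0.0138 and 0.00583 by edgeR), and 3.77% as many counts as its own lay on 4 pseudogenes named after it.

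Oligosaccharyltransferase, which transfers a preformed sugar tree to asparagine, rose in 6 of 7 genes with WT and with R117fs and in 3 with G659fs. All 7 rose with each construct when R117fs replicate 4 was left out. With all libraries 85.7%, 85.7% and 42.9% were called, beside 21.5%, 15.6% and 25.4% of all genes. The shares of all genes were 36%, 21.7% and 39.4% without that library. RPN1, a shared subunit that binds ribosomes or substrates (ENSG00000163902, chromosome 3, 128619970 to 128681075, minus strand), held 318, 316, 303 and 308 CPM in GFP and 374, 373, 361 and 370.0 in WT. It held 388, 418, 414 and 424 CPM in R117fs and 389, 378, 386 and 387 in G659fs. The groups were tight and no RNF43 group overlapped with GFP. R117fs replicates 2, 3 and 4 were above all other libraries, and R117fs replicate 1 was just under G659fs replicate 1. RPN1 rose by 0.25 ± 0.05, 0.40 ± 0.05 and 0.31 ± 0.05 (edgeR adjusted p = 0.00142, 3.47e-05 and 0.000196; R117fs 0.39 without replicate 4), and each call held without any 1 of the 16 libraries. RPN2 rose by 0.20 ± 0.05, 0.17 ± 0.05 and 0.24 ± 0.05, the R117fs call ending without GFP replicate 4 (edgeR adjusted p = 0.0518). DAD1, another shared subunit, rose by 0.27 ± 0.07, 0.27 ± 0.08 and 0.26 ± 0.07. In WT its edgeR adjusted p went to 0.0517 without GFP replicate 1 and 0.0542 without GFP replicate 4, and likewise to 0.0557 without GFP replicate 1, 0.0518 without GFP replicate 3, 0.0626 without GFP replicate 4 and 0.0587 without R117fs replicate 3 in R117fs. In G659fs it went to 0.0573 without GFP replicate 1, 0.0532 without GFP replicate 4 and 0.0716 without G659fs replicate 2 by edgeR.

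OSTC belongs to the form of the enzyme built on STT3A, which works on chains still entering the channel. It held 91.8, 91.2, 96.5 and 75.6 CPM in GFP, 138, 124, 122 and 122 in WT, 122, 125, 127 and 80.1 in R117fs and 116, 103, 105 and 104 in G659fs. R117fs replicate 4 lay among the GFP libraries while all other RNF43 libraries were above them. The fold changes were 0.51 ± 0.11, 0.36 ± 0.11 and 0.27 ± 0.11 (edgeR adjusted p = 0.00401, 0.0416 and 0.0936). In R117fs the call held without R117fs replicate 4 (0.49, edgeR adjusted p = 6.72e-05), and ended at 0.0504 to 0.151 without any 1 of 12 libraries: the 4 GFP libraries, R117fs replicates 1, 2 and 3, WT replicates 3 and 4, and G659fs replicates 2, 3 and 4. STT3A, the catalytic subunit of the same form, rose by 0.26 ± 0.06 and 0.35 ± 0.06 and was at 0.11 ± 0.06 in G659fs. STT3B, the catalytic subunit that works after entry, had 0.13 ± 0.11, 0.07 ± 0.11 and 0.18 ± 0.11 with no call, and passed in all 3 without R117fs replicate 4 (edgeR adjusted p = 0.0183, 0.00257 and 0.00244). DDOST, a shared subunit, rose by 0.19 ± 0.06 in WT and 0.35 ± 0.06 in R117fs. Its WT call ended at an edgeR adjusted p of 0.057 without GFP replicate 2, 0.0546 without GFP replicate 3, 0.0824 without GFP replicate 4, 0.0513 without WT replicate 1 and 0.0575 without WT replicate 3.

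**Figure D4:**
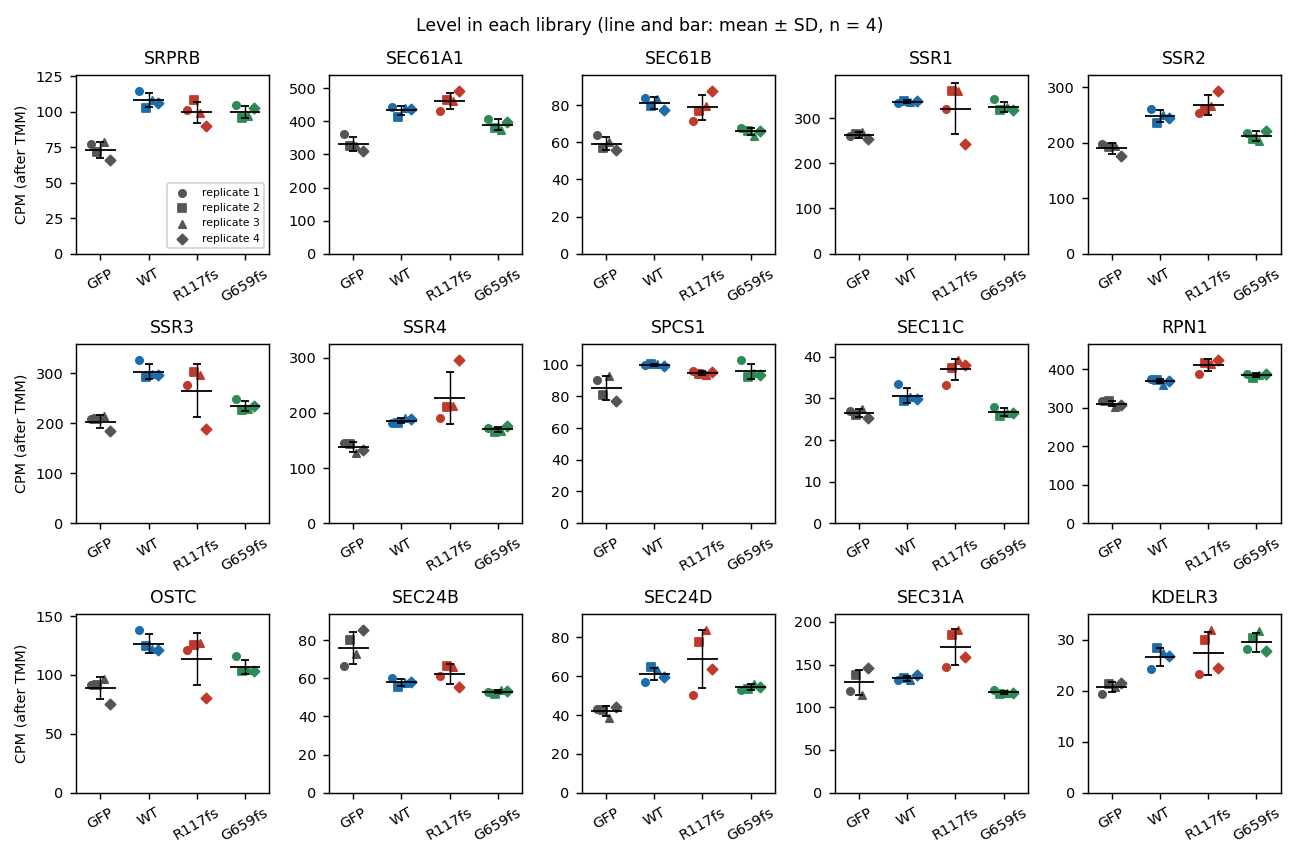
CPM after TMM of the 15 genes described library by library, in the 4 groups (replicates 1 to 4 by marker shape; line and bar, mean ± SD, n = 4; axes start at 0). R117fs replicate 4 (diamond) was below its group in SSR1, SSR3 and OSTC and above it in SSR4, and SEC24B is the one gene with its highest group in GFP.

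The COPII coat did not move as one. Of 10 genes, 3 rose and 1 fell with WT, 4 rose and 1 fell with R117fs, and 1 rose and 1 fell with G659fs. The coat list was thus called at 40%, 50% and 20%, beside 21.5%, 15.6% and 25.4% of all genes. Leaving out R117fs replicate 4 gave 4 and 1, 4 and 1, and 3 and 2, beside 36%, 21.7% and 39.4% of all genes. The 4 SEC24 proteins choose cargo for the vesicle, and SEC24B and SEC24D went opposite ways. SEC24D (ENSG00000150961, chromosome 4, 118722823 to 118838683, minus strand) held 43.3, 42.5, 38.6 and 44.1 CPM in GFP, 57.1, 64.6, 63.0 and 59.8 in WT, 50.3, 77.6, 83.9 and 63.7 in R117fs and 52.8, 53.6, 56.2 and 54.5 in G659fs. No RNF43 library overlapped with GFP, and R117fs was the widest group, from replicate 1 up to replicate 3. SEC24D rose by 0.54 ± 0.11, 0.71 ± 0.11 and 0.37 ± 0.11 (edgeR adjusted p = 0.00241, 0.000496 and 0.0221; R117fs 0.74 without replicate 4). In G659fs the call ended at 0.0735 without GFP replicate 3 and 0.0566 without G659fs replicate 3. With effective transcript length as an offset, the WT and G659fs values were 0.34 and 0.35, without a call (edgeR adjusted p = 0.155 and 0.134).

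SEC24B (ENSG00000138802, chromosome 4, 109433772 to 109540896, plus strand) held 66.4, 80.3, 72.6 and 85.5 CPM in GFP, 60.3, 55.7, 57.5 and 58.1 in WT, 61.1, 66.6, 65.8 and 55.5 in R117fs and 52.7, 51.9, 54.0 and 53.6 in G659fs. GFP varied most, and G659fs, the lowest group, varied least. WT and G659fs lay under all GFP libraries, while R117fs replicate 2 lay just above GFP replicate 1. SEC24B fell by 0.40 ± 0.08 in WT, 0.29 ± 0.08 in R117fs and 0.52 ± 0.08 in G659fs (edgeR adjusted p = 0.00136, 0.0154 and 0.000109; R117fs -0.24 without replicate 4). The R117fs call ended at 0.0566 without GFP replicate 2 and 0.0727 without GFP replicate 4. SEC24A and SEC24C had no call with any construct: SEC24A was at -0.17, -0.03 and -0.11, and SEC24C at -0.01, 0.07 and -0.13. Without R117fs replicate 4 SEC24C passed in G659fs as lower (-0.13, edgeR adjusted p = 0.019).

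SEC31A, which with SEC13 forms the outer cage (ENSG00000138674, chromosome 4, 82818661 to 82901166, minus strand), held 119.6, 138, 114 and 146 CPM in GFP, 132, 135, 132 and 138 in WT, 147, 185, 191 and 158 in R117fs and 120.1, 116, 117 and 117 in G659fs. All 4 R117fs libraries were above GFP, by the least in replicate 1, and WT and G659fs lay within the GFP range. SEC31A rose by 0.40 ± 0.08 in R117fs (0.43 without replicate 4) and was at 0.05 ± 0.08 in WT and -0.14 ± 0.08 in G659fs (edgeR adjusted p = 0.00439, 0.695 and 0.238). SEC13 rose by 0.33 ± 0.07 in WT and 0.41 ± 0.07 in R117fs and was at 0.17 ± 0.07 in G659fs (edgeR adjusted p = 0.00322, 0.000937 and 0.0875).

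SEC23B, the inner coat protein that activates the SAR1 GTPase, rose by 0.24 ± 0.06 in WT and 0.19 ± 0.06 in R117fs and was at -0.08 ± 0.06 in G659fs (edgeR adjusted p = 0.00902, 0.0346 and 0.349). The R117fs call ended at 0.0767 without GFP replicate 2, 0.0746 without GFP replicate 3, 0.113 without GFP replicate 4, 0.0543 without R117fs replicate 2 and 0.0963 without R117fs replicate 3. Its paralog SEC23A was at 0.17, -0.02 and 0.17 with no call, and passed in WT and G659fs without R117fs replicate 4 (edgeR adjusted p = 0.00827 and 0.00807). SAR1A and SAR1B, the GTPases that start the coat, ran from -0.20 to 0.09 with no call in any comparison with GFP, with or without that library.

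**Figure D5:**
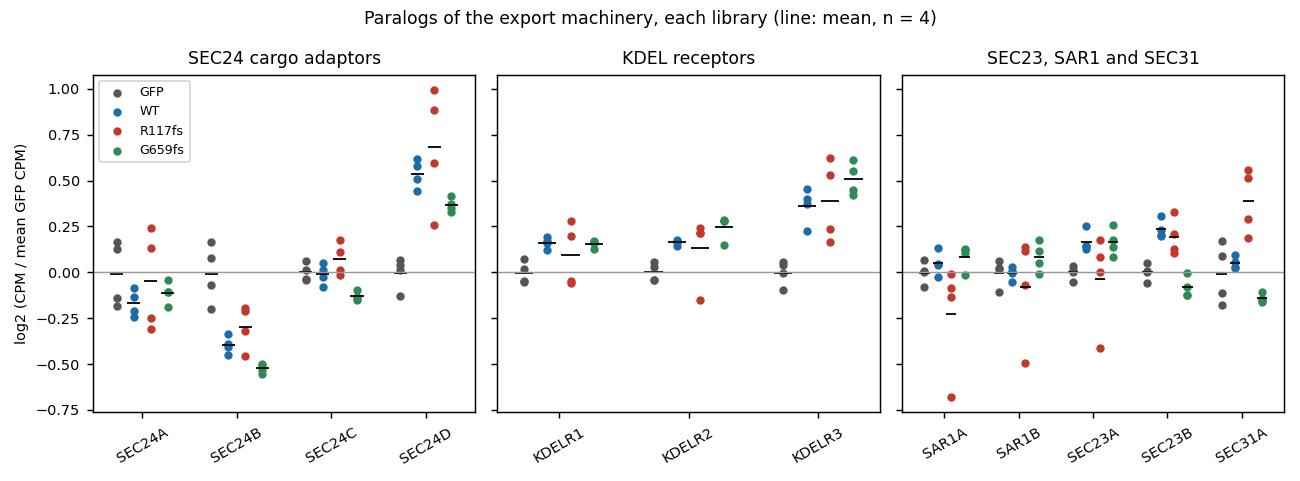
Log2 of CPM over the mean GFP CPM for the paralogs of the export machinery, 1 point per library and a line at the mean (n = 4). SEC24B lies below 0 and SEC24D above it in all RNF43 libraries, SEC31A is high in R117fs, and KDELR3 is the highest of the 3 KDEL receptors in each RNF43 group.

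Of the 5 cargo and retrieval receptors, KDELR3 rose with every construct and KDELR2 with G659fs (1, 1 and 2 genes, and 4, 3 and 4 without R117fs replicate 4). With all libraries these were 20%, 20% and 40%, beside 21.5%, 15.6% and 25.4% of all genes called. Without that library the shares of all genes were 36%, 21.7% and 39.4%. KDELR3 (ENSG00000100196, chromosome 22, 38468062 to 38483447, plus strand) held 19.4, 21.3, 20.7 and 21.5 CPM in GFP, 24.2, 28.4, 27.4 and 26.8 in WT, 23.2, 29.9, 31.9 and 24.4 in R117fs and 28.2, 30.4, 31.7 and 27.7 in G659fs. Every RNF43 library was above every GFP library, and R117fs replicate 1 and WT replicate 1 came closest to them. The rise was 0.37 ± 0.09 in WT, 0.40 ± 0.09 in R117fs and 0.51 ± 0.09 in G659fs (edgeR adjusted p = 0.0093, 0.00855 and 0.000727; R117fs 0.44 without replicate 4), and each call held without any 1 of the 16 libraries. The R117fs call of KDELR3 did not hold under every other alternative run. KDELR2 was at 0.16 ± 0.07, 0.14 ± 0.07 and 0.25 ± 0.07, the G659fs value passing with an edgeR adjusted p of 0.0169 (0.0506 without GFP replicate 3 and 0.0502 without G659fs replicate 2). Without R117fs replicate 4 it passed in all 3 (edgeR adjusted p = 0.00298, 0.000932 and 7.16e-05). KDELR1 was at 0.16, 0.10 and 0.16 with no call, and passed in WT and G659fs without that library (edgeR adjusted p = 0.036 and 0.0388).

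LMAN1 and MCFD2 form the receptor that carries coagulation factors out of the ER. LMAN1 was at 0.19 ± 0.13, 0.16 ± 0.13 and 0.15 ± 0.13, with R117fs replicate 4 at 117.2 CPM and the other R117fs replicates at 177.5 to 226.3. Without that library LMAN1 passed in all 3 (edgeR adjusted p = 0.018, 0.00136 and 0.0489). MCFD2 was at -0.04 ± 0.06, 0.00 ± 0.06 and -0.05 ± 0.06, with no call either way. The R117fs calls not yet given both ways kept their direction without replicate 4: SRP68 was then at 0.26, RPN2 at 0.15, DAD1 at 0.30, DDOST at 0.30, STT3A at 0.40, SEC13 at 0.35 and SEC23B at 0.22 (edgeR adjusted p from 1.09e-05 to 0.00461).

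The constructs were then compared with each other, without the GFP libraries in the contrast, to ask where their groups differed. RNF43 itself was at 53350 ± 8058 CPM in WT, 68440 ± 27520 in R117fs and 39390 ± 5415 in G659fs (SD, n = 4), with no call between constructs. Its level and its form cannot be told apart in these comparisons. Between R117fs and WT, 2 of 44 genes were called, both higher in R117fs (4.55% against 8.11% of all genes, 4.5% higher and 3.62% lower). SEC31A was higher by 0.34 ± 0.08 and SEC11C by 0.27 ± 0.07 (edgeR adjusted p = 0.0194 and 0.0214; 0.37 and 0.25 without R117fs replicate 4). All 4 R117fs libraries were above all 4 WT libraries in SEC31A, and in SEC11C R117fs replicate 1 was below WT replicate 1. SEC31A lost the call at 0.0526 without WT replicate 3, 0.0539 without R117fs replicate 2 and 0.0531 without R117fs replicate 3, and SEC11C at 0.0644 without WT replicate 2, 0.0553 without WT replicate 3, 0.062 without WT replicate 4 and 0.0532 without R117fs replicate 3. RPN1 came next at 0.15 ± 0.05 (edgeR adjusted p = 0.0549) and passed without R117fs replicate 4 (0.14, 0.0331), which made 3 of 44, all higher (6.82% against 9.48% of all genes, 4.7% higher and 4.79% lower). Leaving out R117fs replicate 1 made it 5 (15.4% of all genes). Leaving out WT replicate 3 or R117fs replicate 3 made it 0 (4.11% and 6.22%), and WT replicate 2, WT replicate 4 or R117fs replicate 2 made it 1 (3.69%, 3.89% and 5.37%). With just the 8 libraries fitted it was 0 (0.938% of all genes). With effective transcript length as an offset both calls ended, SEC31A at 0.25 and SEC11C at 0.15 (edgeR adjusted p = 0.0761 and 0.333).

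G659fs was lower than WT in 5 of 44 genes and higher in 0 (11.4% against 5.68% of all genes, 2.32% higher and 3.35% lower). They were SSR3 (-0.37 ± 0.11), SEC23B (-0.32 ± 0.06), SEC61B (-0.30 ± 0.07), SRP68 (-0.24 ± 0.05) and SSR2 (-0.22 ± 0.06), with edgeR adjusted p = 0.0479, 0.00847, 0.0172, 0.0164 and 0.04. All G659fs libraries were under all WT libraries in 19 of the 44 genes, these 5 among them, and above them in 2. The share of all genes with such a separation was not counted. None of these calls held without every library in turn. The count ran from 0 without G659fs replicate 2 (0.589% of all genes) to 15 without R117fs replicate 4 (0 higher and 15 lower, 34.1% against 20.7% of all genes, 9.45% higher and 11.2% lower). It was 1 without WT replicate 1, WT replicate 3 or G659fs replicate 3 (0.885%, 1.24% and 0.685% of all genes), and 2 without WT replicate 4 (2.19%). It was 3 without GFP replicate 1, 2 or 3 or without G659fs replicate 1 or 4 (2.18% to 4.93%). A fit of the 8 libraries alone gave 22 (28.5% of all genes). By contrast, KDELR3 was at 0.15 ± 0.09 and SSR1 at -0.05 ± 0.09 (edgeR adjusted p = 0.367 and 0.793).

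Against R117fs, G659fs was lower in 14 of 44 genes and higher in 0 (31.8% against 14.4% of all genes, 6.35% higher and 8.02% lower). Of the 10 coat genes 6 were lower: SEC31A (-0.54 ± 0.08), SEC24D (-0.34 ± 0.11), SEC23B (-0.28 ± 0.06), SEC13 (-0.24 ± 0.07), SEC24B (-0.23 ± 0.08) and SEC24C (-0.20 ± 0.06). At the channel, SEC11C (-0.47 ± 0.07), SSR4 (-0.41 ± 0.10), SSR2 (-0.34 ± 0.06), SEC61B (-0.26 ± 0.07) and SEC61A1 (-0.25 ± 0.06) were lower, with SRP68, DDOST and STT3A beside them. The smallest edgeR adjusted p among them was 0.000247 (SEC11C) and the largest 0.049 (SEC24B). Just SRP68, SSR2, SEC11C and SEC31A kept the call under every alternative run, each library left out included. Calls of 9 genes held without each library in turn: SRP68, SEC61A1, SSR2, SSR4, SEC11C, DDOST, STT3A, SEC23B and SEC31A.

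The other 5 calls of G659fs against R117fs did not. SEC61B had an edgeR adjusted p of 0.0571 without G659fs replicate 3, SEC24C of 0.0541 without G659fs replicate 2 and 0.0708 without G659fs replicate 3, and SEC13 of 0.0643 without R117fs replicate 3, 0.0681 without G659fs replicate 1, 0.0505 without G659fs replicate 2 and 0.0812 without G659fs replicate 3. SEC24B lost its call without any 1 of 13 libraries (0.0546 to 0.123; it held without GFP replicates 1 and 4 and R117fs replicate 4), and SEC24D without any 1 of 14 libraries (0.0544 to 0.142; it held without R117fs replicates 1 and 4). The count was 9 without G659fs replicate 3 (7.79% of all genes), and 1 higher and 20 lower without R117fs replicate 4 (47.7% against 23.5% of all genes, 11.5% higher and 12% lower). All 14 genes were among the 20, with SEC31A at -0.57 and SEC11C at -0.45. The gene then higher in G659fs was SAR1A (0.16, edgeR adjusted p = 0.0242). A fit of the 8 libraries alone gave 4 genes (4.86% of all genes).

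Neighbouring genes of the same pathway, 80 in 4 lists, were read in the same fit, and all passed the low-count filter. With WT 21 rose and 3 fell (30%), with R117fs 21 and 4 (31.2%) and with G659fs 10 and 8 (22.5%), beside 21.5%, 15.6% and 25.4% of all genes. Leaving out R117fs replicate 4 made it 40 and 7 (58.8%), 32 and 6 (47.5%) and 21 and 11 (40%), beside 36%, 21.7% and 39.4%. Among 15 other targeting and channel genes, 3 rose and 1 fell with WT, 2 and 1 with R117fs and 1 and 2 with G659fs. Called were thus 26.7%, 20% and 20%, beside 21.5%, 15.6% and 25.4% of all genes. Without R117fs replicate 4 it was 4 and 2, 5 and 2, and 1 and 2, beside 36%, 21.7% and 39.4%. SRPRA, the partner of SRPRB in the SRP receptor, was at 119 ± 3.48 CPM in GFP and 158 ± 4.85 in WT (SD, n = 4), and rose by 0.41 ± 0.07 in WT and 0.48 ± 0.07 in R117fs (edgeR adjusted p = 0.000364 and 0.000141; R117fs 0.46 without replicate 4). SEC61A2, the paralog of the pore gene SEC61A1, went the other way and fell with all 3 constructs, by 0.66 ± 0.08, 0.52 ± 0.08 and 0.76 ± 0.08 (edgeR adjusted p = 2.85e-05, 0.000374 and 5.01e-06; R117fs -0.46 without replicate 4). It was at 25.2 ± 1.48 CPM in GFP. DNAJC1, a membrane-bound partner of the luminal chaperone BiP, rose with R117fs by 0.30 ± 0.07 (0.33 without replicate 4).

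Of 24 other genes of N-glycan synthesis and transfer, 7 rose and 0 fell with WT, 8 rose and 1 fell with R117fs, and 5 rose and 1 fell with G659fs. Called were thus 29.2%, 37.5% and 25%, beside 21.5%, 15.6% and 25.4% of all genes. Leaving out R117fs replicate 4 gave 11 and 2, 7 and 1, and 7 and 2, beside 36%, 21.7% and 39.4% of all genes. DPAGT1, which starts the lipid-linked sugar, rose with R117fs by 0.42 ± 0.07 and with G659fs by 0.27 ± 0.07 and was at 0.12 ± 0.07 in WT. It was higher in R117fs than in WT by 0.31 ± 0.07 (edgeR adjusted p = 0.0149). ALG5, which makes the glucose donor, rose by 0.27 ± 0.06, 0.36 ± 0.06 and 0.22 ± 0.06, and KRTCAP2, a small subunit of the STT3A form, by 0.26 ± 0.07, 0.42 ± 0.08 and 0.24 ± 0.07 (edgeR adjusted p from 0.00121 to 0.0262). In R117fs without replicate 4, DPAGT1 was at 0.38, ALG5 at 0.38 and KRTCAP2 at 0.33.

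Of 26 other export genes, 7 rose and 0 fell with WT and with R117fs, and 4 rose and 1 fell with G659fs. Called were thus 26.9%, 26.9% and 19.2%, beside 21.5%, 15.6% and 25.4% of all genes. Leaving out R117fs replicate 4 gave 16 and 1, 11 and 1, and 10 and 3, beside 36%, 21.7% and 39.4% of all genes. PREB, the exchange factor that loads SAR1, rose by 0.36 ± 0.10 in WT and 0.63 ± 0.10 in R117fs and was at 0.25 ± 0.10 in G659fs, where it passed without R117fs replicate 4 (edgeR adjusted p = 0.00576). The cargo receptors TMED9 and TMED3 rose with all 3, TMED9 by 0.31 ± 0.08, 0.54 ± 0.09 and 0.27 ± 0.08 and TMED3 by 0.23 ± 0.07, 0.31 ± 0.07 and 0.36 ± 0.07 (edgeR adjusted p = 0.0201, 0.00517 and 0.00101 for TMED3). For the COPI coat, which runs from the Golgi back to the ER, 4 of 15 genes rose and 2 fell with WT and with R117fs, and 0 rose and 4 fell with G659fs. The shares called were 40%, 40% and 26.7%, beside 21.5%, 15.6% and 25.4% of all genes. Leaving out R117fs replicate 4 gave 9 and 2, 9 and 2, and 3 and 4, beside 36%, 21.7% and 39.4% of all genes. ARF1 and COPZ1 were then called in G659fs (0.14 and 0.13, edgeR adjusted p = 0.0199 and 0.0102). COPZ1 and the GTPase ARF1 rose by 0.29 ± 0.05 and 0.26 ± 0.07 in WT and by 0.31 ± 0.05 and 0.36 ± 0.07 in R117fs. COPZ2, the paralog of COPZ1, was at 1.74 ± 0.327 CPM in GFP and fell by 1.08 ± 0.21, 0.93 ± 0.21 and 1.96 ± 0.23 (edgeR adjusted p = 0.00132, 0.00707 and 1.61e-05), a low count that makes its size uncertain. In R117fs without replicate 4, PREB was at 0.50, TMED9 at 0.43, TMED3 at 0.26, COPZ1 at 0.33, ARF1 at 0.29 and COPZ2 at -1.12.

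Several members share genomic ground with other genes, and the strand setting of the counting is not given in the sources used here. SRPRB overlaps RAB6B, SEC61A1 overlaps RUVBL1, SSR4 overlaps IDH3G, SPCS1 overlaps GLT8D1 and NEK4, SRP19 overlaps REEP5, MCFD2 overlaps TTC7A and KDELR3 overlaps DDX17 on the opposite strand, and SAR1B and SEC24A overlap each other. STT3A overlaps CHEK1 and KDELR2 overlaps DAGLB on the same strand. Reads from such pairs may be divided wrongly, and their values are uncertain to that extent. Pseudogenes named after members held at most 3.77% as many counts as the member (SPCS2).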

How the data were processed

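RNA was sequenced from 16 libraries of HEK293 cells, 4 per group. The authors quantified transcripts with kallisto 0.45.1 on GRCh38, per the submitters' processing notes. Run options, strand setting and annotation release are not given in the sources used here. Per transcript, the deposited files give an estimated count and a TPM value, per the file headers. The TPM values were summed per gene and used for levels only, and deposited lengths and effective lengths for an offset.

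Transcripts were matched by identifier to GENCODE 29, which may not be the submitters' own annotation: 162453 of 178136 matched (91.2%), and the rest held 1.904% to 2.216% of counts. Estimated counts were summed over 35075 genes and rounded. Totals of 20364357 to 46779570 per library set the precision. Groups came from the labels. The 16787 genes passing filterByExpr (minimum count 10, minimum total 15) were tested with edgeR 4.0.16 (R 4.3.3; TMM, robust dispersions, quasi-likelihood fit and test) in 1 fit of all 16 libraries, in 6 comparisons. P-values were adjusted by Benjamini-Hochberg over all genes tested, and a gene was called at an adjusted p under 0.05. Adjusted p-values without another tool's name are from edgeR. Fold changes are log2 with the SE from the F value. The common biological coefficient of variation was 0.103. No pair of libraries within a group matched within sampling noise. The script was tested on simulated data.

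The 44 members and the 4 lists of other pathway genes were chosen with earlier results of these data known. Genes were described library by library if they had the smallest p of their role list in a comparison with GFP, or were among the 8 largest called changes; of the other lists, the 3 genes with the smallest p were named. Promoter sequences are from RefSeq (GRCh38.p14). Alternatives were no filter, DESeq2 (1.42.0) size factors or Wald test, the 8 libraries compared alone, an effective length offset, a GC trend offset (span 0.3), a replicate block, and each library left out. No protein sequences were used here. The result of 1 marker list is not reported here.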

Additional observations from a re-analysis of the deposited data

Results flagged for a closer look

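Within groups of 4 libraries, a library was picked out where its gap to the nearest other, divided by the range of the group, passed the critical value of Dixon's test at 95%. Over the 15 genes described by library this was asked of 60 groups. Chance alone gives about 1 in 20 such groups. The 3 found were all in OSTC, the subunit of the STT3A form of oligosaccharyltransferase. WT replicate 1 was at 138.3 CPM, above the 121.5 to 124.2 of the other 3. R117fs replicate 4 was at 80.12 CPM, below 121.6 to 126.9. G659fs replicate 1 was at 116.1 CPM, above 103.4 to 104.6.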

How the results depend on the processing

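No called fold change of the 15 genes described by library turned its direction under any of the alternatives run. The share of all genes called, or its range, stands in parentheses after each count of members. With WT against GFP the count was 18 to 34 when 1 library was left out (13.1% to 36%), and 36 with a replicate block and the GC trend offset together (41.4%). For R117fs against GFP it was 14 to 31 with 1 library left out (8.56% to 21.7%) and 11 in the 8 libraries alone (3.67%). For G659fs against GFP it was 8 to 29 with 1 library left out (18% to 39.4%), 29 in the 8 libraries alone (43.1%), 33 after removing the GC trend (40.5%) and 33 with a replicate block as well (43.6%). For R117fs against WT it was 0 to 5 with 1 library left out (3.69% to 15.4%), 6 by DESeq2 (12.1%), 0 in the 8 libraries alone (0.938%), 0 with the effective length offset (5.08%), 11 after removing the GC trend (17.7%) and 13 with a replicate block as well (22.3%). For G659fs against WT it was 0 to 15 with 1 library left out (0.589% to 20.7%), 3 with no low-count filter (2.14%), 22 in the 8 libraries alone (28.5%), 16 after removing the GC trend (20%) and 18 with a replicate block as well (24.4%). For G659fs against R117fs it was 9 to 21 with 1 library left out (7.79% to 23.5%), 4 in the 8 libraries alone (4.86%), 22 after removing the GC trend (29.1%) and 24 with a replicate block as well (33%). Of the fold changes of the 15 genes, 1965 stayed on their side of the threshold, 66 passed it and 129 lost it. The cause was not tested.

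The replicate block by itself gave 24, 22, 12, 2, 5 and 14 genes in the 6 comparisons (23.5%, 17.3%, 27.2%, 11%, 8% and 16.3% of all genes, against 21.5%, 15.6%, 25.4%, 8.11%, 5.68% and 14.4% without it). SEC24B in G659fs against R117fs then had an edgeR adjusted p of 0.0599 and OSTC in G659fs against GFP one of 0.039. The labels do not say that the replicate numbers pair the samples, and the data did not establish it: of 24 pairs of same-numbered libraries, 4 had a correlation of deviations over 0.1 (range -0.062 to 0.16). Of 16 libraries, 9 correlated best with their own number, a hint of pairing from the data and not from the design. With 4 libraries a group and changes of this size, a missing call does not show an absent change.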

Other observations

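Which transcripts carried the counts was also read for SEC24D, since its calls depended on effective length. Its 4030-base coding transcript ENST00000280551 held 75.3% ± 9.06 of the gene's estimated counts in GFP, 84.5% ± 3.31 in WT, 71.9% ± 14.8 in R117fs and 77.2% ± 4.96 in G659fs (SD, n = 4). In R117fs its share ran from 49.9% to 82.3%, and that of the shorter ENST00000419654 (2786 bases) from 4.42% to 38.0%. By contrast, 1 coding transcript held 97.5% ± 0.765 of OSTC counts and 99.0% ± 0.381 of RPN1 counts in GFP, with shares of 97.2% to 97.9% and 99.0% to 99.4% in the RNF43 group means. For SEC31A, 41 annotated transcripts shared the counts, and the leading one, ENST00000348405, held 31.0% ± 8.24 in GFP and 24.9% ± 7.94 in R117fs. Shares between such transcripts are estimates of kallisto, and they were not tested.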
